A study of Mus musculus with 9 samples.

Results

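The genes described here are 10 of the 37801 gene entries measured in mouse lymph nodes, taken by symbol, each matching 1 entry. They are 8 immediate early genes, Fos, Fosb, Jun, Junb, Egr1, Atf3, Dusp1 and Ier2, and 2 inducible heat shock genes, Hspa1a and Hspa1b. RNA was sequenced from 3 groups of mice with 3 libraries each. WT mice were albino FVB/NJ mice, labelled wtMHCII and wtNRAS, and the labels describe the wild-type controls as littermates without the transgene. Tyr-NrasQ61K mice were FVB/NJ crosses, labelled wtMHCII and Cre-negative, that carried activated Nras behind the tyrosinase promoter, which is active in the melanocyte lineage. The third group, called MHCII-KO below, carried the same NRAS61K label, was an FVB/NJ cross, and was labelled MHCII-KO and Cre-positive. The series text calls the NRAS61K allele Cre-inducible, whereas the protocol describes a gene driven directly by the tyrosinase promoter. The cells in which Cre acted, the age of the mice and their sex are not stated. Nothing in the labels says whether a library came from 1 animal or from pooled nodes, so p-values cover the spread between libraries, which may be technical.

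Immediate early genes are switched on within minutes of a growth factor, antigen receptor or stress signal, because the factors that bind their promoters are already in the cell and only need to be phosphorylated. Fos and Jun proteins pair to form the transcription factor AP-1, and in lymph nodes these genes respond to lymphocyte activation as well as to the handling of tissue. Hspa1a and Hspa1b encode the stress-inducible Hsp70 chaperone, which refolds damaged proteins and is transcribed under the control of heat shock factor.

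All values are FPKM, fragment counts scaled to the length of the transcript and to the mapped fragments of the library, a scale on which levels of different genes compare per length. The labels name nevus melanocytes as the source, whereas the study's text describes lymph nodes. Lymphocyte markers were high in all 9 libraries, with 10 T cell markers summing to 164 to 415 FPKM, led by Cd4 and Cd3g, and 9 B cell markers to 665 to 2678 FPKM, led by Ighm and Cd79b. The 10 melanocyte markers, led by Kit and Mitf, summed to between 10.01 and 13.4 FPKM in WT, between 15.2 and 21.7 in Tyr-NrasQ61K and between 10.2 and 17.1 in MHCII-KO libraries. Among them, the melanin enzyme gene Dct was at 0.0508, 0 and 0.0319 FPKM in WT and at 0.847 to 5.81 in the 6 transgenic libraries. Kit went the other way, at 5.58, 6.12 and 7.87 FPKM in WT and 1.45 to 5.42 in the 6 transgenic libraries. Depth, estimated from the lowest FPKM of single-exon genes, was about 6450000 fragments in Tyr-NrasQ61K replicate 2, 7410000 in MHCII-KO replicate 2 and 8700000 to 14200000 in the other libraries. The same 2 libraries stood apart from the other 7 on the first principal component, which held 32.1% of the variance. They were at 101.9 and 78.59, and WT replicates 1 and 3 were at the other end, at -74.14 and -73.35. On the second component (14.6%), Tyr-NrasQ61K replicate 3 was at -99.95 and every other library between -12.88 and 35. The identifiers of the WT libraries fell in runs of numbers that no transgenic library shared, and the transgenic libraries shared 2 other runs. WT replicate 1 was alone in its run, whereas WT replicates 2 and 3 shared another. What the runs stand for is not stated, and run and genotype cannot be told apart in the comparisons with WT.

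**Figure D1:**
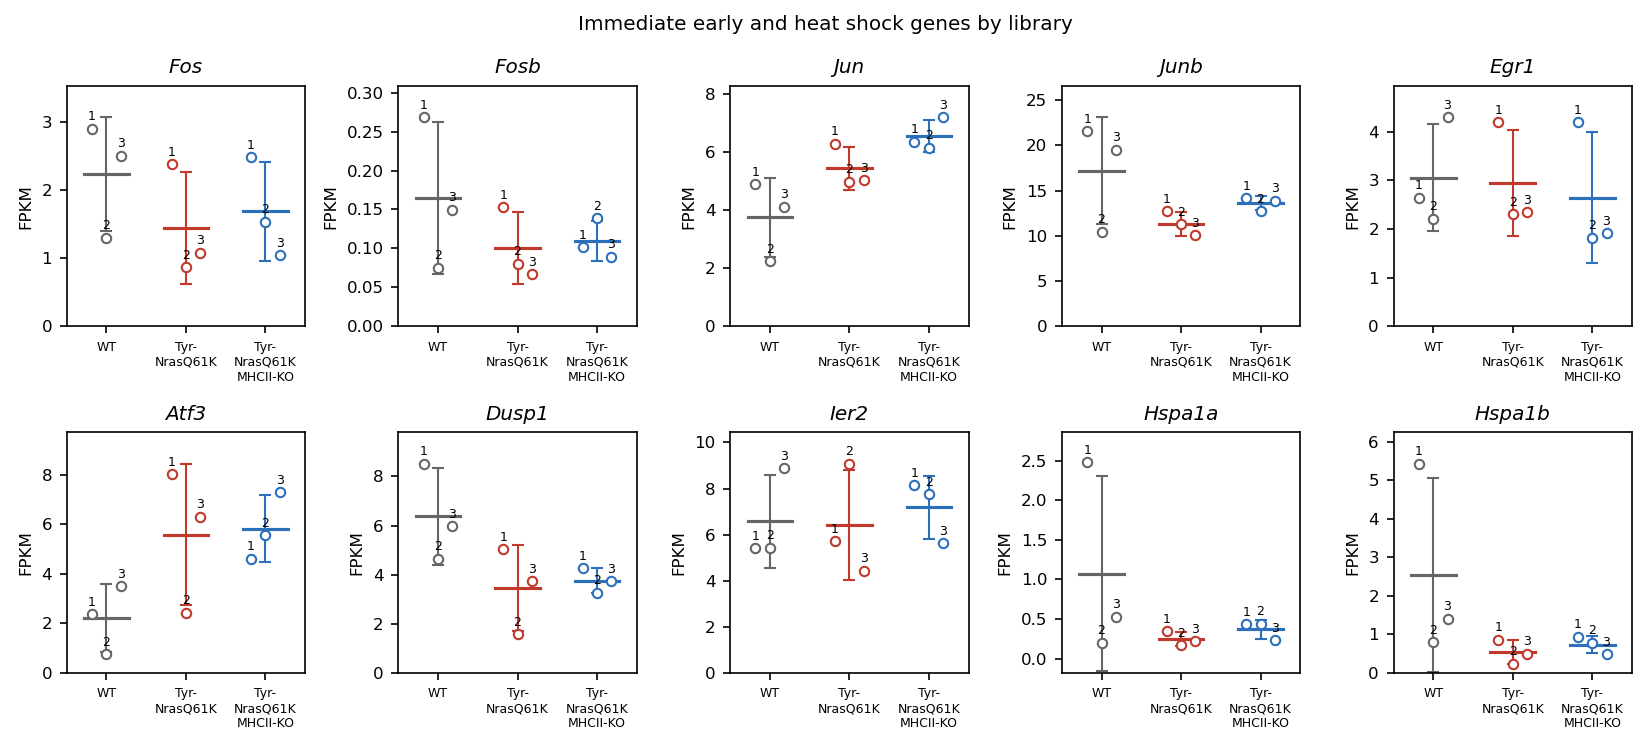
FPKM of the 10 genes in each library (numbered circles, replicates 1 to 3), with the mean of each group (bar) and the SD (whiskers, n = 3). Jun was higher in all 6 NrasQ61K libraries than in any WT library, and the high WT means of Hspa1a and Hspa1b came from WT replicate 1, at 2.48 and 5.42 FPKM.

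The DNA just upstream of 1 RefSeq start site per gene is shown for 5 members whose values the results turn on. Each sequence holds the 250 bases before that start (build GRCm38.p6, minus strand of each chromosome). Capitals mark letters that match a motif on either strand. The motifs searched were the cyclic AMP response element core TGACG, the AP-1 site TGANTCA, the AP-1-like site TGANNTCA, the heat shock element GAANNTTC or TTCNNGAA, and the serum response element core known as the CArG box. Jun lay at chr4:95052223-95052472, Junb at chr8:84978749-84978998, Atf3 at chr1:191183334-191183583, Dusp1 at chr17:26508473-26508722 and Hspa1a at chr17:34972157-34972406.
Jun: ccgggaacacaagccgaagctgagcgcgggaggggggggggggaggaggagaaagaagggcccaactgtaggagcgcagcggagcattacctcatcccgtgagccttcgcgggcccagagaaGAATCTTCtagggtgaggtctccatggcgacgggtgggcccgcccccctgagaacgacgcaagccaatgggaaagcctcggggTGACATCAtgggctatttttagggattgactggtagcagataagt
Junb: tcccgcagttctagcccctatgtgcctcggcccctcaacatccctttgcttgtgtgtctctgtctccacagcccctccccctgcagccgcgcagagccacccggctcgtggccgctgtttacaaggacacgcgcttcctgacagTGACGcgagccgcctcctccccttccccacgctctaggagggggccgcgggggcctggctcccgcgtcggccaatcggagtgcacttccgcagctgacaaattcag
Atf3: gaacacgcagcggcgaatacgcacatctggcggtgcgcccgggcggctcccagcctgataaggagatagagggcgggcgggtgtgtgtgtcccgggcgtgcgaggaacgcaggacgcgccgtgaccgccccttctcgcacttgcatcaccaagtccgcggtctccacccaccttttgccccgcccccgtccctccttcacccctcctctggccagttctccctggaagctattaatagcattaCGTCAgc
Dusp1: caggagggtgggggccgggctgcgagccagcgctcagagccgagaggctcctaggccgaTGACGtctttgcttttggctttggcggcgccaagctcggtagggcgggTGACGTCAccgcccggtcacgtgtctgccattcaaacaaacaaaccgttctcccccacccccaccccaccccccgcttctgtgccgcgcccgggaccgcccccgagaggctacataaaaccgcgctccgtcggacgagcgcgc
Hspa1a: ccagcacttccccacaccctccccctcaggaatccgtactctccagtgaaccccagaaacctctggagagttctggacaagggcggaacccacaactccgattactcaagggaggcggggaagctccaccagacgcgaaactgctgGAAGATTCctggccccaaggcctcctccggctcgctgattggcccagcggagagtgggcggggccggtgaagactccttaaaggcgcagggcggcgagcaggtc
The window of Jun held 1 AP-1-like match and 1 heat shock element match, and that of Junb held neither and had 1 match to TGACG. Atf3 had 1 match to TGACG, read on the opposite strand, and Dusp1 had 3 matches to TGACG, 2 of them inside its 1 AP-1-like match. Hspa1a and Hspa1b each held 1 heat shock element match, and their windows differed at 3 of 250 bases. Among the other members with a sequence, Fos held 2 and Fosb 1 match to TGACG. Neither TGANTCA nor the CArG box matched in the 8 windows searched. Egr1 and Ier2 had no sequence, and bases further upstream than 250 were not searched, so sites there are not covered. The windows of Atf3 and Dusp1 lie inside the gene spans given below, and other start sites were not searched. Of 27025 RefSeq promoters of the same length, 17.9% held TGACG, 12% TGANNTCA, 12.9% the heat shock element, 6.87% TGANTCA and 1.40% the CArG box. These matches describe letters in the windows and show nothing about binding in the lymph nodes.

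Jun and Junb encode the basic leucine zipper partners of AP-1, with Jun the stronger activator and Junb able to restrain it. Jun (ENSMUSG00000052684, a single exon at chr4:95049034-95052222 in GENCODE M21) was at 4.89, 2.25 and 4.12 FPKM in WT replicates 1 to 3. It was at 6.29, 4.99 and 5.04 FPKM in Tyr-NrasQ61K and at 6.36, 6.15 and 7.20 FPKM in MHCII-KO libraries. All 6 transgenic values lay above all 3 WT values, with means of 3.75 ± 1.36, 5.44 ± 0.737 and 6.57 ± 0.557 FPKM (SD, n = 3 each). In both NrasQ61K groups against WT the log2 fold change of FPKM + 1 was 0.59 (95% interval 0.13 to 1.06), but it did not pass the test over all genes (limma, adjusted p = 0.201). Of all 16587 genes tested, 4.52% were higher without overlap in this comparison. WT replicate 2 held the lowest Jun value, and without it the log2 fold change was 0.34 (adjusted p = 0.205).

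Junb (ENSMUSG00000052837, chr8:84974484-84978718) had the highest mean of the 10 genes, 14.0 FPKM. It was at 21.6, 10.4 and 19.5 FPKM in WT, 12.7, 11.3 and 10.1 FPKM in Tyr-NrasQ61K and 14.2, 12.7 and 13.9 in MHCII-KO libraries. WT replicates 1 and 3 were above every transgenic library, while WT replicate 2 lay among the Tyr-NrasQ61K values. The log2 fold change against WT was -0.50 in Tyr-NrasQ61K (95% interval -1.13 to 0.12, adjusted p = 0.363) and -0.26 in MHCII-KO libraries (-0.88 to 0.36, adjusted p = 0.598), and the latter was 0.02 under median-ratio scaling.

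The ratio of Jun to Junb does not change with any factor that scales a whole library. It was 0.227, 0.215 and 0.211 in WT, 0.495, 0.443 and 0.5004 in Tyr-NrasQ61K and 0.449, 0.483 and 0.519 in MHCII-KO libraries. WT spanned 0.211 to 0.227 although both genes differed about 2-fold between WT replicates 1 and 2, and the lowest transgenic library was at 0.443. The means were 0.218 ± 0.00809, 0.480 ± 0.0316 and 0.484 ± 0.0352 (SD, n = 3 each). The ratio was chosen after the values were seen and is given as a description without a test. Of the ratios of all other tested genes to Junb, 5.13% were higher in the 6 transgenic libraries than in all WT libraries. Read from the side of Jun, however, 39.6% of all other tested genes were, like Junb, lower relative to Jun in every transgenic library.

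**Figure D2:**
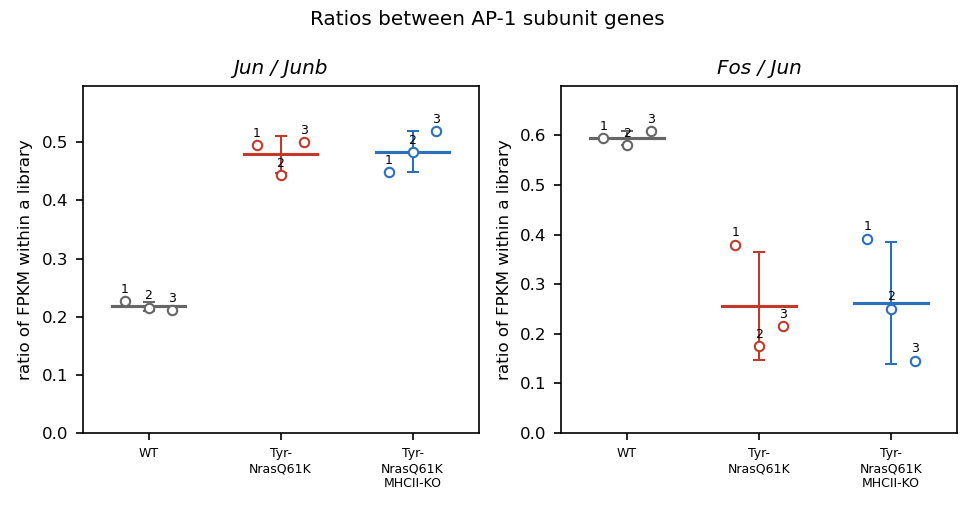
Ratio of FPKM within each library (numbered circles) for Jun over Junb and Fos over Jun, with group means and SD (n = 3). Jun over Junb was 0.211 to 0.227 in WT and 0.443 to 0.519 in the 6 transgenic libraries, and Fos over Jun was 0.581 to 0.609 in WT and 0.145 to 0.391 in the others.

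Fos and Fosb encode the Fos-side partners, which form AP-1 only together with a Jun protein. Fos (ENSMUSG00000021250, chr12:85473890-85477273) was at 2.91, 1.31 and 2.51 FPKM in WT, 2.39, 0.869 and 1.08 in Tyr-NrasQ61K and 2.49, 1.54 and 1.05 in MHCII-KO libraries. The groups overlapped, replicate 1 being the highest of its group in each of them. The log2 fold change in both NrasQ61K groups against WT was -0.34 (95% interval -0.97 to 0.28, limma adjusted p = 0.445). Fos over Jun was 0.594, 0.581 and 0.609 in WT, 0.380, 0.174 and 0.215 in Tyr-NrasQ61K and 0.391, 0.250 and 0.145 in MHCII-KO libraries. These ratios did not overlap, a separation that Fos shared with the same 39.6% of genes. Fosb (ENSMUSG00000003545, chr7:19302696-19310051) was near the detection limit, at 0.268, 0.0754 and 0.150 FPKM in WT, 0.153, 0.0802 and 0.0669 in Tyr-NrasQ61K and 0.102, 0.139 and 0.0892 in MHCII-KO libraries. It reached 1 FPKM in 0 libraries and was not tested.

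AP-1 has further subunit genes, and the FPKM of Jun, Junb, Jund, Fos, Fosb, Fosl1 and Fosl2 were summed to see which made up most of the message. The sum was between 24.7 and 51.3 FPKM in WT, between 34.3 and 54.7 in Tyr-NrasQ61K and between 38.0 and 51.5 in MHCII-KO libraries, so the total overlapped between groups. Junb made up between 42.0% and 46.7% of it in WT, between 20.6% and 34.1% in Tyr-NrasQ61K and between 24.7% and 37.2% in MHCII-KO libraries. These shares did not overlap with WT, whereas the FPKM of Junb did. A share also falls when another subunit rises, and how many other genes would separate in this way was not computed. Jun made up 9.11% to 9.86% in WT and 9.12% to 16.9% in the 6 transgenic libraries, and Fos 5.29% to 6.001% and 1.59% to 6.54%. Jund, a subunit expressed steadily in most cells, made up 29.2% to 34.7% in WT, and its shares of 65.4% and 55.2% in Tyr-NrasQ61K and MHCII-KO replicates 2, the libraries that stood apart, were the highest.

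Atf3 and Egr1 encode transcription factors outside the Jun and Fos families. Atf3 (ENSMUSG00000026628, chr1:191170296-191218039) encodes a stress-induced factor that binds cyclic AMP response elements and mostly represses. It was at 2.37, 0.748 and 3.50 FPKM in WT, 8.01, 2.43 and 6.30 in Tyr-NrasQ61K and 4.61, 5.55 and 7.30 in MHCII-KO libraries. Every MHCII-KO value was above every WT value, whereas Tyr-NrasQ61K replicate 2 lay between WT replicates 1 and 3. Means were 2.21 ± 1.38, 5.58 ± 2.86 and 5.82 ± 1.37 FPKM (SD, n = 3 each). Atf3 had the largest log2 fold change among the 7 members tested, 1.03 in Tyr-NrasQ61K against WT (95% interval 0.02 to 2.03, limma adjusted p = 0.325) and 1.17 in MHCII-KO against WT (0.17 to 2.18, adjusted p = 0.329). In both groups together it was 1.10 (adjusted p = 0.202), and 0.72 (adjusted p = 0.245) without WT replicate 2, the library where Atf3 was lowest.

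Egr1 (ENSMUSG00000038418, chr18:34859823-34864984) encodes a zinc finger factor induced by mitogens through ERK. It was at 2.64, 2.21 and 4.29 FPKM in WT, 4.20, 2.30 and 2.35 in Tyr-NrasQ61K and 4.20, 1.82 and 1.92 in MHCII-KO libraries. Each group had 1 library above 4 FPKM and 2 below 3, and the groups overlapped throughout. Its log2 fold change in both NrasQ61K groups against WT was -0.11 (95% interval -0.74 to 0.52, limma adjusted p = 0.823), and 0.08 under median-ratio scaling.

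Dusp1 and Ier2 act downstream of the immediate early signal. Dusp1 (ENSMUSG00000024190, chr17:26505590-26562128) encodes a phosphatase that switches off MAP kinases and is also induced by glucocorticoids. It was at 8.51, 4.64 and 5.97 FPKM in WT, 5.04, 1.56 and 3.74 in Tyr-NrasQ61K and 4.26, 3.26 and 3.72 in MHCII-KO libraries. Every MHCII-KO value was below every WT value, and Tyr-NrasQ61K replicate 1 was the only transgenic library above a WT library. The log2 fold change in both groups against WT was -0.70 (95% interval -1.35 to -0.04, limma adjusted p = 0.220). In Tyr-NrasQ61K alone it was -0.78 (adjusted p = 0.323), and -0.43 without replicate 2 of that group. Ier2 (ENSMUSG00000053560, a single exon at chr8:84661331-84662852), a nuclear immediate early protein, was at 5.40, 5.44 and 8.89 FPKM in WT, 5.72, 9.07 and 4.44 in Tyr-NrasQ61K and 8.16, 7.75 and 5.64 in MHCII-KO libraries. It had the smallest spread of the 10 genes, its highest library being 2.04-fold its lowest, and no group stood apart.

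Hspa1a (ENSMUSG00000091971, chr17:34969190-34972156) and Hspa1b (ENSMUSG00000090877, chr17:34956436-34959238) are neighbouring single-exon genes. Of all stretches of 50 bases in their transcripts, 58.8% in Hspa1a and 62.3% in Hspa1b also occur in the other, so the division of fragments between the pair is uncertain. Hspa1a was at 2.48, 0.204 and 0.530 FPKM in WT, 0.349, 0.173 and 0.218 in Tyr-NrasQ61K and 0.435, 0.441 and 0.231 in MHCII-KO libraries. Hspa1b was at 5.42, 0.788 and 1.40 FPKM in WT, 0.854, 0.233 and 0.497 in Tyr-NrasQ61K and 0.937, 0.777 and 0.480 in MHCII-KO libraries. WT replicate 1 was the highest library for both genes and Tyr-NrasQ61K replicate 2 the lowest, a range of 14.3-fold for Hspa1a and 23.3-fold for Hspa1b. Summed over the pair, WT replicate 1 was at 7.91 FPKM, the other WT libraries at 0.992 and 1.93, and the transgenic libraries at 0.406 to 1.37. WT replicate 1 was also alone in its identifier run, so this library and its run cannot be told apart.

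Hspa1a and Hspa1b reached 1 FPKM in 1 and 2 libraries, below the 3 needed for a test. Without the filter, the log2 fold change in both NrasQ61K groups against WT was -0.51 for Hspa1a (95% interval -1.21 to 0.19, limma adjusted p = 0.436) and -0.91 for Hspa1b (-1.80 to -0.01, adjusted p = 0.319). On the same terms Fosb was at -0.07 (adjusted p = 0.528). The counting behind these values was small, with an estimated 3.31 to 64.0 fragments for Hspa1a, 4.21 to 132 for Hspa1b and 1.96 to 8.83 for Fosb per library, against 99.0 to 327 for Jun.

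**Figure D3:**
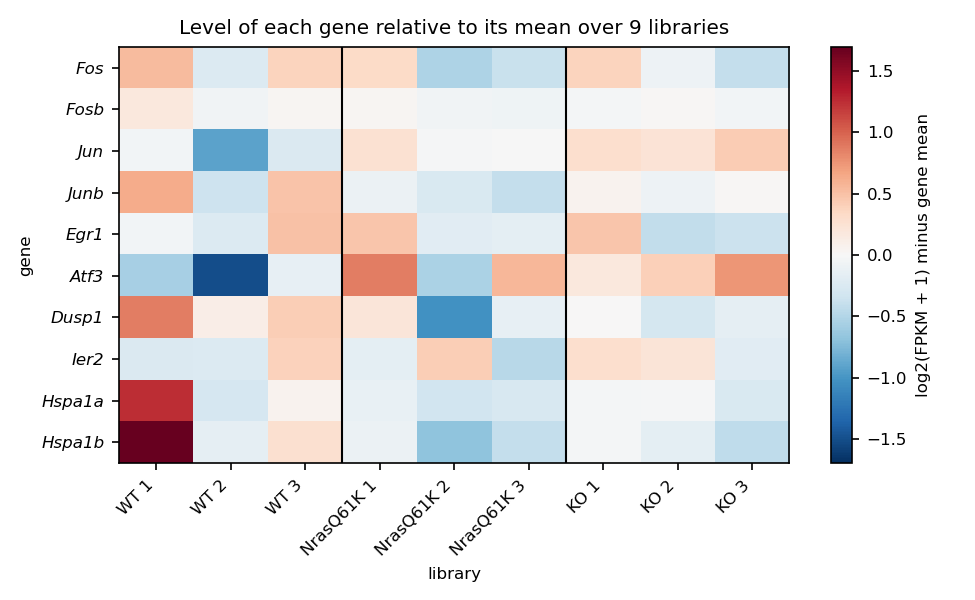
Level of each gene in each library as log2(FPKM + 1) minus the mean of that gene over the 9 libraries (red above, blue below), with lines between the groups and KO for MHCII-KO. WT replicate 1 was the highest library for 6 of the 10 genes and Tyr-NrasQ61K replicate 2 the lowest for 4.

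Read library by library, the 10 genes did not move as 1 block. WT replicate 1 was the highest library for Fos, Fosb, Junb, Dusp1, Hspa1a and Hspa1b, but not for Jun, Egr1, Atf3 or Ier2. WT replicate 2 was among the 3 lowest libraries for 7 of the 10 genes and among the 3 highest for 0, and WT replicate 3 was among the 3 highest for 8. In Tyr-NrasQ61K, replicate 1 was among the 3 highest for 5 genes and replicates 2 and 3 were among the 3 lowest for 7 and 6. In MHCII-KO libraries these counts were 6 genes among the 3 highest in replicate 1, and 2 and 4 genes among the 3 lowest in replicates 2 and 3. The summed FPKM of the 8 immediate early genes was 48.6, 27.1 and 48.9 in WT, 44.5, 32.5 and 33.1 in Tyr-NrasQ61K and 44.3, 38.9 and 40.8 in MHCII-KO libraries, so the spread within WT covered the values of both other groups. Over all genes tested, WT replicates 1 and 3 held the highest value of 19.6% and 24.1%, WT replicate 2 that of 2.53%, and Tyr-NrasQ61K replicate 2 the lowest value of 34.4%. Tyr-NrasQ61K replicate 3 differed in this respect, since it held the highest value of 28.9% of all genes and the lowest of 2.01%, but was the highest library for 0 of the 10 members and the lowest for 3.

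**Figure D4:**
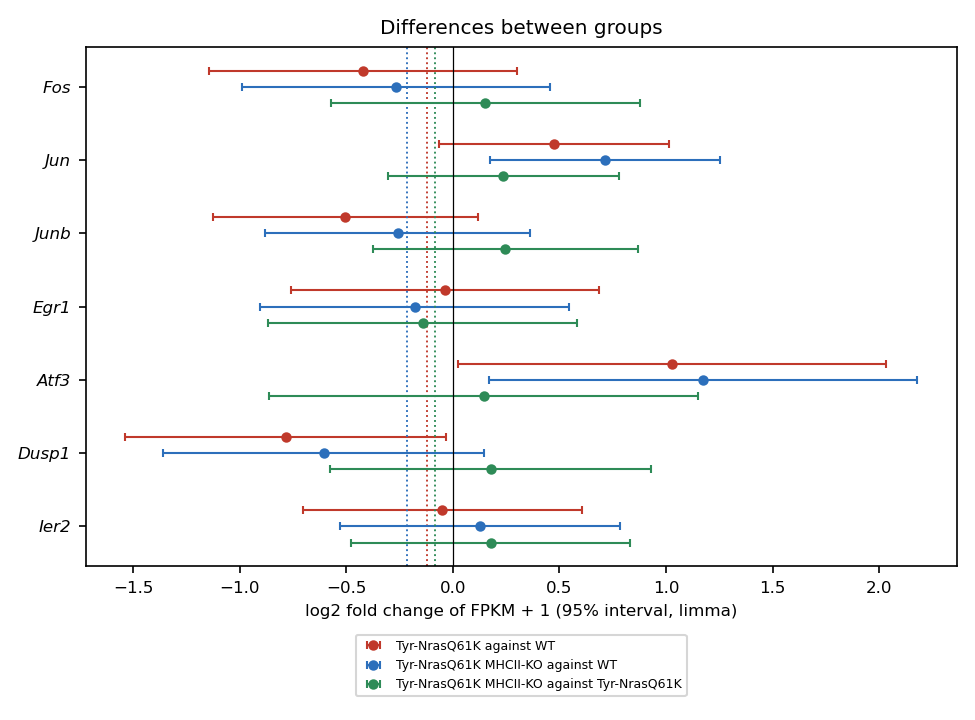
Log2 fold change of FPKM + 1 with its 95% interval (limma) for the 7 members tested in 3 comparisons, with dotted lines at the median of all genes in the comparison of the same colour. Against WT, the intervals of Atf3 in both groups, Jun in MHCII-KO and Dusp1 in Tyr-NrasQ61K left out 0, while those of Jun in Tyr-NrasQ61K and Dusp1 in MHCII-KO libraries included it, as did every interval of MHCII-KO against Tyr-NrasQ61K.

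Tyr-NrasQ61K against WT asked what lymph nodes of mice with melanocyte Nras activation expressed differently. Of the 7 members that passed the filter, 0 were called at an adjusted p of 0.05 by limma, where 0.235% of all genes were called, and Atf3 and Dusp1 had an unadjusted p under 0.05 (0.0459 and 0.0431), where 15.2% of all genes did. Jun was the 1 member whose groups did not overlap, as for 18.7% of all genes, 8.18% in the higher direction. In MHCII-KO against WT, 0 members were called, against 0.145% of all genes. Jun and Atf3 had an unadjusted p under 0.05 (0.0157 and 0.0272), against 15% of all genes, and Jun, Atf3 and Dusp1 did not overlap, against 31.3% (7.97% higher, 23.4% lower). These comparisons share the WT libraries. In both NrasQ61K groups against WT, 0 members were called, against 0.398% of all genes, and Jun, Atf3 and Dusp1 had an unadjusted p under 0.05 (0.0188, 0.0191 and 0.0393), against 21.7%, and Jun alone did not overlap, against 13%. The median of all genes in this comparison was -0.16, and relative to it Atf3 was at 1.27, Jun at 0.76, Ier2 at 0.20, Egr1 at 0.06, Fos at -0.18, Junb at -0.22 and Dusp1 at -0.53. Weighting the libraries by their own spread called 2 (Junb, Atf3), 5 (Fos, Jun, Junb, Atf3, Dusp1) and 4 (Jun, Junb, Atf3, Dusp1) members in these 3 comparisons, as it called 5076, 7407 and 7542 of all genes.

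MHCII-KO against Tyr-NrasQ61K asked whether the expression differed with the MHC class II and Cre labels. The 2 labels change together between these groups and cannot be told apart. Again 0 of 7 members were called by limma, against 0.0482% of all genes, and 0 had an unadjusted p under 0.05, against 1.52%. The log2 fold changes were 0.25 for Junb, 0.24 for Jun, 0.18 for Dusp1 and Ier2, 0.15 for Fos and Atf3 and -0.14 for Egr1. With equal sums of FPKM per library the 6 positive log2 fold changes turned negative. The median of all genes also moved, from -0.08 to -0.41, and these 6 members stayed above it. The single entry Mir5105 held 805056 FPKM of MHCII-KO replicate 2 and 746416 FPKM of Tyr-NrasQ61K replicate 2. Elsewhere it ranged from 32777 FPKM (WT replicate 1) up to 270112 FPKM (MHCII-KO replicate 3). Its part in the sign changes was not tested. The intervals were wide, from -0.30 to 0.78 for Jun and from -0.86 to 1.15 for Atf3, so differences of such a size were not detectable. Junb was the 1 member without overlap, higher in MHCII-KO libraries (12.72, 13.9 and 14.2 FPKM against 10.1, 11.3 and 12.70), where 3.8% of all genes did not overlap and 0.729% were higher. Its nearest libraries, MHCII-KO replicate 2 and Tyr-NrasQ61K replicate 1, have identifiers of the same run, and with the run as a term the Junb log2 fold change was 0.21 (adjusted p of 1).

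Other genes of the same programmes were taken from lists of 40 further immediate early genes, 24 heat shock and chaperone genes, 16 endoplasmic reticulum stress genes and 17 upstream kinases and transcription factors. In both NrasQ61K groups against WT, limma called 0 genes of each list at an adjusted p of 0.05. Of the 37 further immediate early genes tested, 3 had an unadjusted p under 0.05 in the higher and 9 in the lower direction, where 6.52% and 15.2% of all genes did, with a median log2 fold change of -0.20 beside -0.16 for all genes. Arc, a neuronal immediate early gene also known from migrating dendritic cells, came closest, at 4.45, 2.37 and 3.49 FPKM in WT and 0.949 to 1.30 in the 6 transgenic libraries (log2 fold change -1.04 ± 0.17 SE, adjusted p = 0.0581). Klf10, a TGF-beta-induced repressor, was at 8.38 ± 2.22 FPKM in WT, 3.56 ± 1.18 in Tyr-NrasQ61K and 3.92 ± 1.16 in MHCII-KO libraries. Dusp6, a phosphatase that inactivates ERK, was at 17.6 ± 5.10, 9.57 ± 2.23 and 8.95 ± 1.31 FPKM, and Cd69, an early activation marker of lymphocytes, at 8.57 ± 2.62, 3.57 ± 1.92 and 3.32 ± 1.496 FPKM (SD, n = 3 each). Arc, Klf10, Dusp6 and Cd69 were picked by their small p in this comparison, and none overlapped between WT and the transgenic libraries. Over the whole list, 5 of the 37 genes tested were lower without overlap and 1 higher, where 8.44% and 4.52% of all genes were. The most abundant genes of the list, Mcl1 and Nfkbia, had means of 86.3 and 51.8 FPKM in WT and 61.8 and 41.3 in Tyr-NrasQ61K libraries and overlapped between groups.

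Of the 22 heat shock and chaperone genes tested, 0 had a log2 fold change above 0, where 36.5% of all genes did. An unadjusted p under 0.05 was reached by 7 of them, each in the lower direction, where 15.2% of all genes did so. The list median was -0.55, beside -0.16 for all genes. The 4 with the smallest p were Hspb8, a small heat shock protein, at 1.40 ± 0.383 FPKM in WT, 0.548 ± 0.253 in Tyr-NrasQ61K and 0.540 ± 0.146 in MHCII-KO libraries, and Hspe1, Cacybp and Cryab (adjusted p = 0.168 to 0.200, limma). Hspe1, a mitochondrial chaperonin, was at 35.7 ± 10.3, 20.01 ± 5.93 and 17.6 ± 2.18 FPKM. Hspa8, the constitutive Hsp70, was at 284, 148 and 311 FPKM in WT, 180, 140 and 289 in Tyr-NrasQ61K and 177, 144 and 143 in MHCII-KO libraries, and Ubb, a polyubiquitin gene, at 304, 184 and 332, at 195, 110 and 275, and at 213, 117 and 207 FPKM. WT replicates 1 and 3 held the highest value of 11 and 9 of the 22 genes (50% and 40.9%), beside 19.6% and 24.1% of all genes. Tyr-NrasQ61K replicate 2 held the lowest of 18 (81.8%), beside 34.4% of all genes. Dnajb1 and Hsph1, partners of inducible Hsp70 picked after their values were seen, were compared with the peak of Hspa1b in WT replicate 1. Dnajb1 was at 12.2, 6.69 and 12.1 FPKM in WT and Hsph1 at 5.93, 5.41 and 5.72, so neither set WT replicate 1 apart from WT replicate 3. Other genes of the list differed in this. Cryab (3.63, 1.82 and 1.69 FPKM in WT) and Hspb8 (1.80, 1.04 and 1.36) were highest in WT replicate 1. Hspe1 (41.6, 23.9 and 41.6) and Cacybp (21.4, 12.8 and 21.8) did not set it apart from WT replicate 3.

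Of the 15 endoplasmic reticulum stress genes tested, 2 had an unadjusted p under 0.05, both in the lower direction, where 15.2% of all genes did, with a median log2 fold change of -0.37 beside -0.16 for all genes. The 4 with the smallest p were Dnajc3, Calr, Ddit3 and Dnajb9 (adjusted p = 0.218 to 0.324, limma), and Hsp90b1, an abundant chaperone of that compartment, was at 123 ± 38.4 FPKM in WT and 119 ± 65.0 in Tyr-NrasQ61K libraries. Of the 17 upstream genes, 1 had an unadjusted p under 0.05 in each direction, where 6.52% of all genes did in the higher and 15.2% in the lower, with a median of -0.24. Mkl1, a coactivator of serum response factor, was at 17.3, 17.3 and 13.7 FPKM in WT and 19.6 to 34.1 in the 6 transgenic libraries (log2 fold change 0.65 ± 0.22 SE, adjusted p = 0.196). Hsf2, a relative of the main heat shock factor, was at 3.41, 2.48 and 3.30 FPKM in WT and 1.32 to 2.34 in the transgenic libraries (-0.49 ± 0.19 SE, adjusted p = 0.210). Creb1 and Elk1, which bind the promoters of immediate early genes, had log2 fold changes of -0.82 and -0.27, and Elk4 and Mapkapk2, the most abundant of the list, -0.04 and -0.14, all with overlap between groups.

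**Figure D5:**
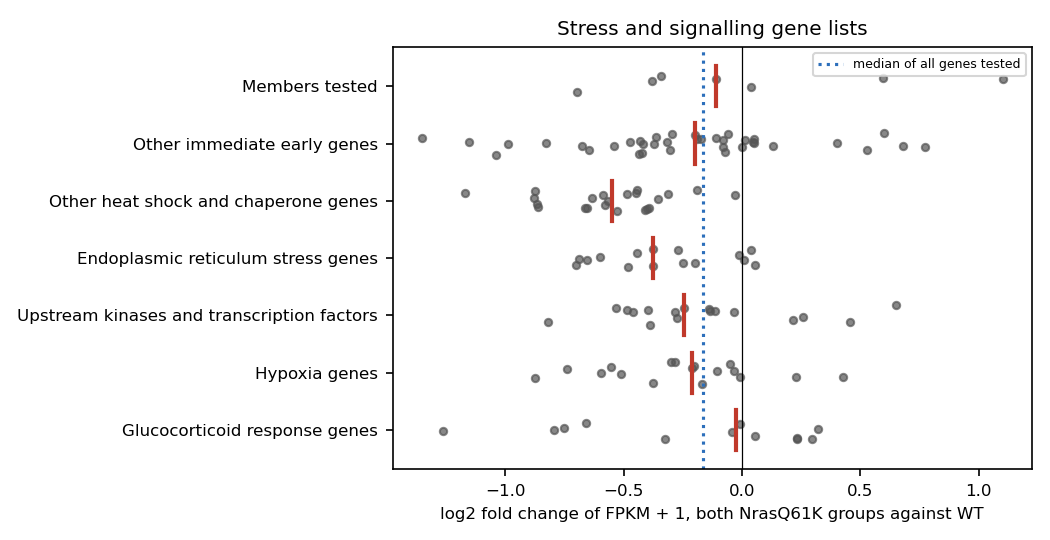
Log2 fold change of FPKM + 1 in both NrasQ61K groups against WT for each tested gene (points) of 7 gene lists, with the list median (red bar), 0 (black line) and the median of all genes tested (dotted line). All 22 heat shock and chaperone genes lay below 0, while the 7 members spanned -0.70 to 1.10.

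In whole lymph nodes, fewer cells of a type and less RNA per cell cannot be told apart. Of the marker sums below, that of adipocytes alone separated WT from both transgenic groups. The 10 adipocyte markers, led by Fabp4 and Cfd, summed to between 297 and 558 FPKM in WT, between 46.6 and 198 in Tyr-NrasQ61K and between 66.5 and 181 in MHCII-KO libraries. Limma called 3 of these 10 genes lower in both groups against WT, where 0.398% of all genes were called in either direction. It called 0 genes of the other lists in this paragraph. The 10 smooth muscle markers, led by Des and Synpo2, summed to 51.8 to 101, 26.6 to 59.3 and 34.5 to 46.2 FPKM. The 10 endothelial markers, led by Egfl7 and Pecam1, summed to 135 to 278, 103 to 193 and 105 to 143 FPKM, and the 10 macrophage markers, led by C1qb and C1qa, to 235 to 584, 237 to 357 and 266 to 405 FPKM. Fibroblast and reticular markers (Dcn, Ccl19) summed to 143 to 362, 218 to 271 and 216 to 250 FPKM, and neutrophil markers (S100a9, S100a8) to 27.1 to 126, 15.0 to 169 and 25.4 to 47.4 FPKM. The 9 skeletal muscle markers (Mylpf, Tnni2) stayed at or below 34.8 FPKM and the 10 keratinocyte markers (Krt14, Krt5) at or below 3.72 FPKM, with Krt1, Krt15 and Lor below 0.1 FPKM in all 9 libraries. The part of these marker sums in the values of the 10 members was not tested.

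The genes whose log2 values across the 9 libraries were most like the mean of the 8 immediate early genes were Plp2 (Pearson r = 0.90), Igkj5, SNORA42, Ctss, Galk1, Cuedc2, Stom, U5, Dpt and SNORA84 (r = 0.85). Ctss, which encodes the lysosomal protease cathepsin S, had r = 0.87 and was at 303, 152 and 320 FPKM in WT, 344, 212 and 296 in Tyr-NrasQ61K and 271, 251 and 294 in MHCII-KO libraries. Those most like the mean of Hspa1a and Hspa1b were SNORA26 (r = 0.96), Phf23, Spib, Tpsab1, Hist2h2aa1, Sparc, Hist2h2aa2, U4atac, Nacc1 and Gadd45b (r = 0.88). Tpsab1, a mast cell tryptase, was at 15.3 FPKM in WT replicate 1 and 0.981 to 6.32 in the other 8 libraries, and Gadd45b, a stress-induced gene, at 27.4 FPKM in WT replicate 1 and 8.94 to 21.1 in the others. These were the highest of 7868 correlations, the points share library and depth, and for the Hsp70 pair they rest on WT replicate 1.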

How the data were processed

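RNA of 9 lymph node libraries was sequenced on 1 flow cell. The table deposited by the authors holds FPKM in 1 column per library, and the submitters' processing notes name TopHat, Cufflinks and Cuffdiff with build mm10. No source names versions, annotation or filters, and Cuffdiff's own results were not used. Of 37819 entries, 18 that held several values per library were left out. FPKM hold no counts, so the number of libraries and an estimated depth limit the precision. Depth was estimated from genes with 1 transcript and 1 exon of 1500 to 6000 bases, whose lowest FPKM correspond to 1 fragment.

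Genes that reached 1 FPKM in 3 or more libraries (16587) were transformed as log2(FPKM + 1), which understates changes of low genes, and fitted with limma 3.58.1 (R 4.3.3), with a mean per group over all 9 libraries, a trend of the variance with mean level and no replicate block. All tests were two-sided, adjusted by Benjamini-Hochberg over all genes tested and called at 0.05. The study's Cuffdiff test needs reads. The script was tested on simulated data. Positions came from GENCODE M21 and promoters from RefSeq, which held 8 of the 10 members. Tables and plots used Python 3.11.15, numpy 2.4.6, pandas 2.3.3 and matplotlib 3.10.9.

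The members and lists were chosen with earlier results of these data known. Of 248 listed genes, 246 matched an entry. Named genes were all members and, from each list, called genes, otherwise the 4 with the smallest unadjusted p and the 2 with the highest mean. For likeness they were the 10 genes with the highest Pearson r, among genes with a mean FPKM of at least 5. Alternatives were a pseudocount of 0.1, no filter or a mean of at least 5, median-ratio, quantile and equal-sum scaling, a replicate block, library weights, the groups compared alone, leaving out libraries, and the identifier run as a term.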

Additional observations from a re-analysis of the deposited data

How the results depend on the processing

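The count of 0 members called held under every alternative run except weights for the libraries (2 in Tyr-NrasQ61K, 5 in MHCII-KO and 4 in both groups against WT) and the replicate block (2 in both groups against WT, Atf3 with adjusted p = 0.0456 and Dusp1 with 0.0464). The numbers were not taken to pair the libraries, because the labels give them no meaning and the deviations of same-numbered libraries correlated at -0.04 to 0.33, not above 0.1 in every pair. In 11 of 18 comparisons a library correlated best with its own number, where 6 would do so if numbers had no bearing, which is a hint of a shared effect from the data and not from the design. Under the block 894, 777 and 2675 genes were called in Tyr-NrasQ61K, MHCII-KO and both groups against WT, beside 39, 24 and 66 without it, and 7 beside 8 in MHCII-KO against Tyr-NrasQ61K. The weights, which gave Tyr-NrasQ61K replicate 1 and MHCII-KO replicate 3 values of 4.15 and 5.22 and Tyr-NrasQ61K replicate 2 a value of 0.197, called 5076, 7407, 7542 and 24 genes in the same order. In the order Tyr-NrasQ61K, MHCII-KO and both groups against WT, a mean of at least 5 FPKM gave 18, 13 and 26 genes, median-ratio scaling 66, 37 and 164, and equal sums 23, 12 and 32. A pseudocount of 0.1 gave 24 in Tyr-NrasQ61K against WT, quantile normalization 173 in both groups against WT, and leaving out both libraries that stood apart 14 in MHCII-KO against Tyr-NrasQ61K. Leaving out 1 library gave 11 to 36, 9 to 29, 26 to 98 and 7 to 11 genes, and the cause was not tested. The lowest counts against WT came without WT replicate 3, and the highest of both groups, 98, without WT replicate 2.

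Of the log2 fold changes of single members, 224 under other settings and 233 with 1 library left out kept direction and side of the threshold, 27 and 19 changed sign, and 13 under other settings kept direction and passed the threshold (11 with weights, 2 with the block). Sign changes were as follows, and the part of Mir5105 in those under equal sums was not tested. Under equal sums the median of all genes went from -0.12 to 0.12 in Tyr-NrasQ61K against WT. For MHCII-KO against Tyr-NrasQ61K it went from -0.08 to -0.41. In Tyr-NrasQ61K against WT, Egr1 was 0.12 with median-ratio scaling, 0.024 with quantile normalization, 0.16 with equal sums, 0.21 with weights and 0.076 without both libraries that stood apart, and Ier2 was 0.13, 0.059 and 0.20 under the 3 scalings. In MHCII-KO against WT, median-ratio scaling gave 0.019 for Junb and 0.034 for Egr1, and weights -0.13 for Ier2. In both groups against WT, Egr1 was 0.076 with median-ratio scaling and 0.026 without both libraries that stood apart, and Ier2 -0.17 with weights and -0.11 without those libraries. In MHCII-KO against Tyr-NrasQ61K, equal sums gave -0.0047 for Fos, -0.10 for Jun, -0.12 for Junb, -0.17 for Atf3, -0.10 for Dusp1 and -0.16 for Ier2, weights -0.51 for Fos, -0.15 for Atf3 and -0.26 for Dusp1, leaving out both libraries that stood apart -0.25 for Atf3 and -0.10 for Dusp1, and the identifier run -0.067 for Fos. With 1 library left out, Egr1 ranged from -0.25 to 0.17 and Ier2 from -0.29 to 0.16 in Tyr-NrasQ61K against WT, Egr1 from -0.47 to 0.031 in MHCII-KO against WT, and Egr1 from -0.26 to 0.10 and Ier2 from -0.083 to 0.25 in both groups against WT. In MHCII-KO against Tyr-NrasQ61K the ranges were -0.052 to 0.41 for Fos, -0.43 to 0.074 for Egr1, -0.27 to 0.43 for Atf3, -0.18 to 0.44 for Dusp1 and -0.022 to 0.42 for Ier2. Signs turned without WT replicate 3 (Egr1, Ier2), WT replicates 1 and 2 (Ier2), Tyr-NrasQ61K replicates 1 (Egr1), 2 (Fos, Atf3, Dusp1, Egr1, Ier2) and 3 (Egr1, Ier2), and MHCII-KO replicates 1 (Fos, Ier2), 2 (Egr1) and 3 (Atf3). With a mean of at least 5 FPKM, Fos, Egr1, Atf3 and Dusp1 were not fitted. A fit to only the groups compared could not be set apart for both groups against WT, which use all 9 libraries. Estimated fragments were under 10 per library for Fosb, so its differences were not detectable at this depth.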

Other observations

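Hypoxia and glucocorticoid genes share inducers with several members and were read in both NrasQ61K groups against WT, where limma called 0 of either list at an adjusted p of 0.05. Of the 17 hypoxia genes tested, 4 had an unadjusted p under 0.05, each in the lower direction, where 15.2% of all genes did, with a median log2 fold change of -0.21 beside -0.16 for all genes. Bnip3, a mitophagy receptor, was at 7.52, 9.57 and 8.95 FPKM in WT and 2.26 to 5.80 in the 6 transgenic libraries (log2 fold change -0.88 ± 0.25 SE, adjusted p = 0.170). Vegfa, the vascular growth factor, was at 13.2, 10.8 and 12.6 FPKM in WT and 7.23 to 9.86 in the transgenic libraries (-0.51 ± 0.16 SE, adjusted p = 0.191). Pgk1 and P4ha1 had log2 fold changes of -0.55 and -0.59, and the abundant glycolytic genes Ldha and Pfkfb3 -0.30 and -0.05.

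Of the 12 glucocorticoid response genes tested, 4 had an unadjusted p under 0.05, each in the lower direction beside the same 15.2% of all genes, and the list median of -0.03 lay above that of all genes. These 4 were also the only ones of the 12 tested without overlap between WT and the 6 transgenic libraries. Since they were picked by p in this comparison, their lack of overlap adds little to it. Of all genes, 8.44% were lower without overlap. Klf9, a Krüppel-like repressor, was at 5.28, 3.89 and 6.83 FPKM in WT and 2.22 to 2.78 in the transgenic libraries (log2 fold change -0.79 ± 0.16 SE, adjusted p = 0.101). Tsc22d3, which encodes the anti-inflammatory protein GILZ, was at 54.4, 55.0 and 63.7 FPKM in WT and 28.02 to 44.4 in the transgenic libraries (-0.66 ± 0.21 SE, adjusted p = 0.191). Zbtb16 was at 2.55 ± 0.438 FPKM in WT, 1.10 ± 0.200 in Tyr-NrasQ61K and 1.14 ± 0.444 in MHCII-KO libraries, and Errfi1, an inhibitor of EGF receptor signalling, at 9.91 ± 3.62, 3.36 ± 2.03 and 3.76 ± 1.07 FPKM (SD, n = 3 each). Sgk1, a kinase induced by the same hormones, was at 20.8 ± 5.42, 27.7 ± 6.45 and 23.4 ± 1.13 FPKM (SD, n = 3 each) and overlapped between groups. The part of the lower adipocyte marker sums of the transgenic libraries in these values was not tested.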
